A study of Mus musculus with 9 samples.

Results

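The Hox genes of the mouse small intestine were followed on 9 expression arrays. A gene was taken as a Hox gene when its symbol named a member of the Hoxa, Hoxb, Hoxc or Hoxd cluster, and a probe set (the group of short probes that reports 1 transcript) was used when it was annotated to that gene alone. This gave 48 of 45037 probe sets, for 33 of the 18193 genes named on the array. RefSeq lists 39 Hox genes, and those beyond the 33 were not analysed here. The Hoxa cluster was covered by 9 genes, Hoxb by 9, Hoxc by 7 and Hoxd by 8. Of the 33 genes, 22 had 1 probe set and 11 had several, and 3 probe sets annotated to more than 1 Hox gene were left out.

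The 9 arrays fell into 3 groups of adult male mice, 6 to 8 weeks old, with 3 mice and 1 array per mouse in each. Control jejunum came from Gata4loxP/+VilCre mice and mutant jejunum from Gata4loxP/-VilCre mice, both taken 10 cm from the pyloric sphincter. Control ileum came from other Gata4loxP/+VilCre mice, 1 cm from the cecum. Every mouse thus carried the VilCre transgene, in which the villin promoter drives Cre recombinase in intestinal epithelium, and a loxP-flanked copy of Gata4, which encodes a zinc finger transcription factor of the jejunum. The other copy of Gata4 was wild type in controls and null in mutants. The labels do not say which layers of the gut wall were taken. RNA came from tissue that held several cell types, so fewer cells of a type and less RNA per cell cannot be told apart.

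Hox genes encode homeodomain transcription factors that give cells their position along the head-to-tail axis. Their order along each cluster follows the order of their expression along the body, with low-numbered genes expressed further forward and high-numbered genes further back. Genes of the same number in different clusters are paralogues. In the gut, Hox genes are best known from the mesenchyme, the future muscle and connective tissue, where they are expressed in nested domains along the tube. TALE homeodomain proteins (the Pbx, Meis and Pknox families) bind DNA together with Hox proteins, and the related ParaHox genes Cdx1, Cdx2 and Pdx1 pattern the gut epithelium.

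Values are quantile-normalized log2(intensity + 16), given as arrays 1, 2 and 3 of a group. Differences between groups are on the same scale, which understates changes of dim probe sets. A difference was called when limma's moderated test over all 45037 probe sets gave a Benjamini-Hochberg adjusted p under 0.05. Some counts are also given at an unadjusted p under 0.05. The share of all probe sets at that threshold was not counted, so these counts have no background to be read against. Groups of 3 arrays set the limit of precision throughout. The 40th percentile of all values on all arrays, 4.95, served as a mark of dim signal. On all 9 arrays 16 Hox probe sets lay under it, and 25 lay above it on at least 3 arrays. All probe sets of 11 genes stayed under it everywhere, 6 of them in the Hoxd cluster, 2 each in Hoxb and Hoxc and 1 in Hoxa.

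The labels were first checked on segment markers. In its brighter probe set the targeted gene, Gata4, read 9.57, 9.49 and 9.52 on the control jejunum arrays, 9.61, 9.51 and 9.38 on the mutant arrays and 5.64, 5.30 and 5.20 on the ileum arrays, and was not called between mutant and control jejunum (adjusted p = 0.972, limma). No source used here places its probes inside or outside the deleted part, so this checks nothing about the deletion. Fabp6, the ileal bile acid binding protein, averaged 4.84 in control jejunum, 13.90 in the mutant and 13.74 in ileum. Lct, the lactase of proximal enterocytes, averaged 12.96, 8.85 and 4.80 in the same order. The ileum arrays were dimmer as deposited, with a trimmed mean intensity of 96.8 to 122 against 150 to 172 in control and 148 to 180 in mutant jejunum. Brightness and segment cannot be told apart, and its part in the results was not tested beyond the scaling alternatives.

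**Figure D1:**
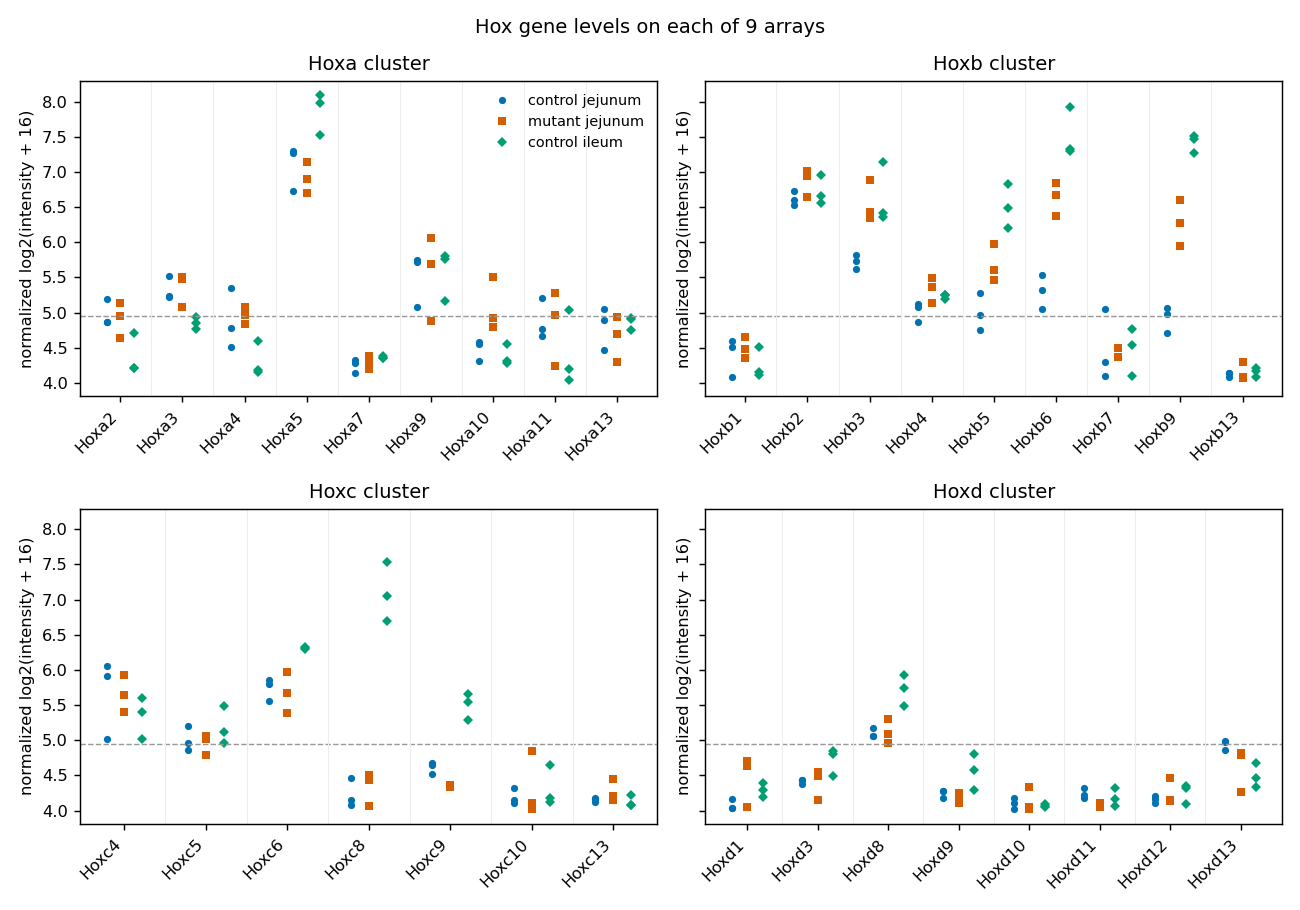
Normalized log2(intensity + 16) of the 33 Hox genes on each of the 9 arrays, 1 panel per cluster, with genes in paralogue order, each by the probe set with the highest mean; circles are control jejunum, squares mutant jejunum and diamonds control ileum, and the dashed line is the 40th percentile of all values (4.95). Hoxb6, Hoxb9 and Hoxc8 reach 6.70 to 7.93 in control ileum, while most Hoxd genes lie under the line on every array.

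Promoter sequence was available in the RefSeq table (GRCm38.p6) for 19 of the measured Hox genes, and for 2 of the 9 genes with a called probe set, Hoxa5 and Hoxa9. Both are shown because Hoxa9 holds a probe set that was higher in the mutant and Hoxa5 lies in the same cluster. The 250 bases before each start are written 5′ to 3′ on the gene's strand, with capitals on GATA or its reverse complement TATC, the core letters that GATA factors bind. Hoxa5 lies at chr6:52204588-52204837 and Hoxa9 at chr6:52227371-52227620, both on the minus strand.
Hoxa5: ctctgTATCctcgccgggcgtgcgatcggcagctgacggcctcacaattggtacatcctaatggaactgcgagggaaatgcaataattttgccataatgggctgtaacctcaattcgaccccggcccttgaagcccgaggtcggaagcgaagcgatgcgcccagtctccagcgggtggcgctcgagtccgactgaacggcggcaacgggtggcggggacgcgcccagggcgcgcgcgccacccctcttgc
Hoxa9: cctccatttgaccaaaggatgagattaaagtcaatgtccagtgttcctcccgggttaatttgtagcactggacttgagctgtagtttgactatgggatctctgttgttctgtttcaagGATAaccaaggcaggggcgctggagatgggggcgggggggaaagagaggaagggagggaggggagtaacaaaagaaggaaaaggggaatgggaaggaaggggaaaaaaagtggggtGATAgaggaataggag
Hoxa5 held 1 GATA match, 245 bases before the start, and Hoxa9 held 2, 132 and 16 bases before it. A match was found in 53.6% of the 32851 windows of this length in the table, so its presence is common. TTTAT, letters bound by Cdx proteins, was searched on both strands and was in neither window, against 37.3% of all windows. The letters TTTATC would hold both motifs. A match here describes letters and not a bound site.

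Control ileum was compared with control jejunum to ask which Hox genes differ along the axis of the small intestine. Ileum was higher in 8 of 48 Hox probe sets (16.7%), against 4.4% of all probe sets, and lower in 0, against 4.19% of all. At an unadjusted p under 0.05, limma gave 14 higher and 5 lower, with no share of all probe sets counted at that threshold. The 3 ileum arrays lay wholly above the 3 jejunum arrays in 20 Hox probe sets (41.7%, against 15.2% of all) and wholly below in 5 (10.4%, against 13.8% of all). The median difference was 0.10 over the Hox probe sets and 0.01 over all probe sets. Counted by gene, 7 of 33 rose: Hoxb3, Hoxb5, Hoxb6, Hoxb9, Hoxc8, Hoxc9 and Hoxa5. By cluster, these were 4 of 9 Hoxb genes, 2 of 7 Hoxc genes, 1 of 9 Hoxa genes and 0 of 8 Hoxd genes, where limma's unadjusted p was under 0.05 for 2 higher and 1 lower. The count of 8 fell to 5 without control jejunum 2, control jejunum 3 or control ileum 3. With no scaling between arrays it was 5 higher and 4 lower.

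The genes were also counted by paralogue group, that is by position along the clusters. Over all probe sets 4.4% rose, in 15.2% every ileum array lay above every control jejunum array, and in 13.8% every one lay below. These shares count every probe set, dim ones and those without a gene included. The genes are counted by their probe set of highest mean, so counts and shares are not like for like. Among groups 5 to 8, 4 of 9 genes rose, with a median difference of 0.62, and the segments did not overlap in 7, with ileum higher in each. Among groups 1 to 4, 1 of 10 genes rose, with a median of -0.02, and the segments did not overlap in 4 with ileum higher and in 2 with ileum lower. Among groups 9 to 13, 2 of 14 genes rose, with a median of 0.04, and the segments did not overlap in 3 with ileum higher and in 1 with ileum lower. The difference between these groups of paralogues was not tested.

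Hoxc8, a mid-cluster gene, showed the largest difference of the 48 probe sets. The control jejunum arrays read 4.15, 4.09 and 4.46, the mutant arrays 4.44, 4.51 and 4.06, and the ileum arrays 7.53, 6.70 and 7.06. All 6 jejunum arrays lay under the mark of dim signal and all 3 ileum arrays far above it. In deposited intensity units, jejunum gave 2.03, 1.10 and 6.96 and ileum 112, 75.4 and 98.4. The means of 4.23 ± 0.20 and 7.09 ± 0.42 (SD, n = 3) differed by 2.86 on this scale (SE 0.24, 95% interval 2.34 to 3.38, limma adjusted p = 4.92e-05). Because the jejunum signal was near background, this size depends on the constant added: it was 5.17 with 1 in place of 16 and 1.48 with 64.

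Hoxc9, the next gene of the cluster, was also highest in ileum. Control jejunum read 4.52, 4.65 and 4.68, mutant jejunum 4.35, 4.36 and 4.34, and control ileum 5.55, 5.66 and 5.29. The jejunum arrays of both genotypes lay under the mark and the ileum arrays above it. The ileum exceeded control jejunum by 0.88 (SE 0.15, 95% interval 0.55 to 1.21, limma adjusted p = 0.00441). That difference was 1.67 with a constant of 1 and 0.37 with 64. The Hoxc8 and Hoxc9 calls were kept under each alternative in which they were tested.

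Hoxc6 was read by 3 probe sets, and in each of them the ileum arrays lay above every control jejunum array. The one that stands for the gene read 5.81, 5.86 and 5.55 in control jejunum against 6.32, 6.30 and 6.33 in ileum, a difference of 0.57 that was not called (adjusted p = 0.0878). A second, of the x_at kind whose probes can match other transcripts, read 5.89, 5.65 and 5.71 in control jejunum, 5.59, 5.66 and 5.41 in mutant jejunum and 6.30, 6.47 and 6.39 in ileum. Its difference of 0.63 between ileum and control jejunum was called (adjusted p = 0.0336). Leaving out control jejunum 2 or 3 or any 1 ileum array ended that call, as did no scaling, with adjusted p from 0.0651 to 0.48. With the replicate number as a block it was lost too (0.0601). The third differed by 0.78 (adjusted p = 0.0708). The other Hoxc genes, Hoxc4, Hoxc5, Hoxc10 and Hoxc13, were not called, with differences in their representative probe sets from -0.32 for Hoxc4 to 0.18 for Hoxc5.

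Hoxb9 was the Hoxb gene with the largest difference. It read 5.06, 4.72 and 4.98 in control jejunum and 7.51, 7.27 and 7.47 in control ileum. The means were 4.92 ± 0.18 and 7.42 ± 0.13 (SD, n = 3). The segments did not overlap, and the difference was 2.50, a fold of 5.65 (SE 0.19, limma adjusted p = 3.54e-05). It was 3.38 with a constant of 1 and 1.48 with 64.

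Hoxb6 read 5.53, 5.06 and 5.32 in control jejunum against 7.30, 7.93 and 7.32 in control ileum, all ileum arrays being higher by more than the spread within either group. The difference was 2.21, a fold of 4.63 (SE 0.22, limma adjusted p = 0.000153). Hoxb5 read 4.76, 5.28 and 4.97 against 6.49, 6.83 and 6.21, again without overlap. Its difference was 1.51 (95% interval 1.01 to 2.01, adjusted p = 0.00228). With a constant of 64 the differences of Hoxb6 and Hoxb5 were 1.40 and 0.80. The ileum calls of Hoxb5, Hoxb6 and Hoxb9 were kept under every alternative.

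Hoxb3, nearer the low-numbered end of the cluster, read 5.74, 5.62 and 5.82 in control jejunum and 6.42, 6.36 and 7.14 in control ileum. Its ileum arrays lay above all jejunum arrays, with control ileum 3 the highest, and the difference of 0.91 was called (adjusted p = 0.0328). The call was lost with no scaling (adjusted p = 0.206) and without control jejunum 1, 2 or 3 or control ileum 3 (0.0748, 0.109, 0.0768 and 0.0938). A second Hoxb3 probe set differed by 0.65 and was not called (adjusted p = 0.127).

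The remaining Hoxb genes gave small differences. Hoxb2 read 6.73, 6.54 and 6.60 in control jejunum and 6.96, 6.65 and 6.56 in control ileum, so the segments overlapped and differed by 0.10. Hoxb4 differed by 0.21 (adjusted p = 0.515). Hoxb1, Hoxb7 and Hoxb13 differed by -0.14, -0.01 and 0.03 and were dim on most arrays.

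In the Hoxa cluster, Hoxa5 gave the ileum call nearest the threshold. Its x_at probe set read 6.73, 7.27 and 7.30 in control jejunum, 7.14, 6.90 and 6.70 in mutant jejunum and 8.09, 7.52 and 7.98 in control ileum. The ileum arrays were the highest 3 of the 9. The ileum exceeded control jejunum without overlap, and the difference of 0.76 (95% interval 0.31 to 1.22) had an adjusted p of 0.0451 in limma. It was no longer called with no scaling (0.362), with the arrays centred on their medians (0.0543) and without control jejunum 1 (0.13), control jejunum 2 (0.0759), control jejunum 3 (0.0701), mutant jejunum 1 (0.051), mutant jejunum 2 (0.0669), control ileum 1 (0.14) or control ileum 3 (0.128). The call was also lost with no intensity trend (0.0526), in the fit of these 2 groups alone (0.0597), with array weights (0.0544) and with the replicate number as a block (0.075). The second Hoxa5 probe set differed by -0.02 (adjusted p = 0.966), so the 2 probe sets of this gene disagree.

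None of the low-numbered Hoxa genes was called. Hoxa2 read 5.19, 4.87 and 4.87 in control jejunum against 4.22, 4.21 and 4.72 in control ileum, all ileum arrays being lower, and differed by -0.59 (adjusted p = 0.0921). The representative of 4 Hoxa3 probe sets read 5.52, 5.23 and 5.23 against 4.93, 4.85 and 4.76, also without overlap, with a difference of -0.48 (adjusted p = 0.138). The other Hoxa3 probe sets differed by 0.05, -0.06 and -0.44, so the 4 did not read alike. Hoxa4 differed by -0.57 with overlap (adjusted p = 0.148). The representative readings of Hoxa2, Hoxa3 and Hoxa4 ran from 4.16 to 5.52, on either side of the mark of dim signal.

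In the Hoxd cluster, Hoxd8 was read by 2 probe sets that gave alike values. One read 5.07, 5.06 and 5.17 in control jejunum against 5.49, 5.93 and 5.75 in control ileum, and the other 5.33, 4.85 and 4.52 against 5.63, 5.50 and 5.80. Ileum lay above jejunum on all arrays of both, by 0.62 and 0.74, and neither was called (adjusted p = 0.0588 and 0.0602). Hoxd13, the end of the cluster, had 1 probe set at -0.45 and 1 at 0.48, neither called. Hoxd10, Hoxd11 and Hoxd12 differed by -0.03, -0.06 and 0.09 at dim signal.

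**Figure D2:**
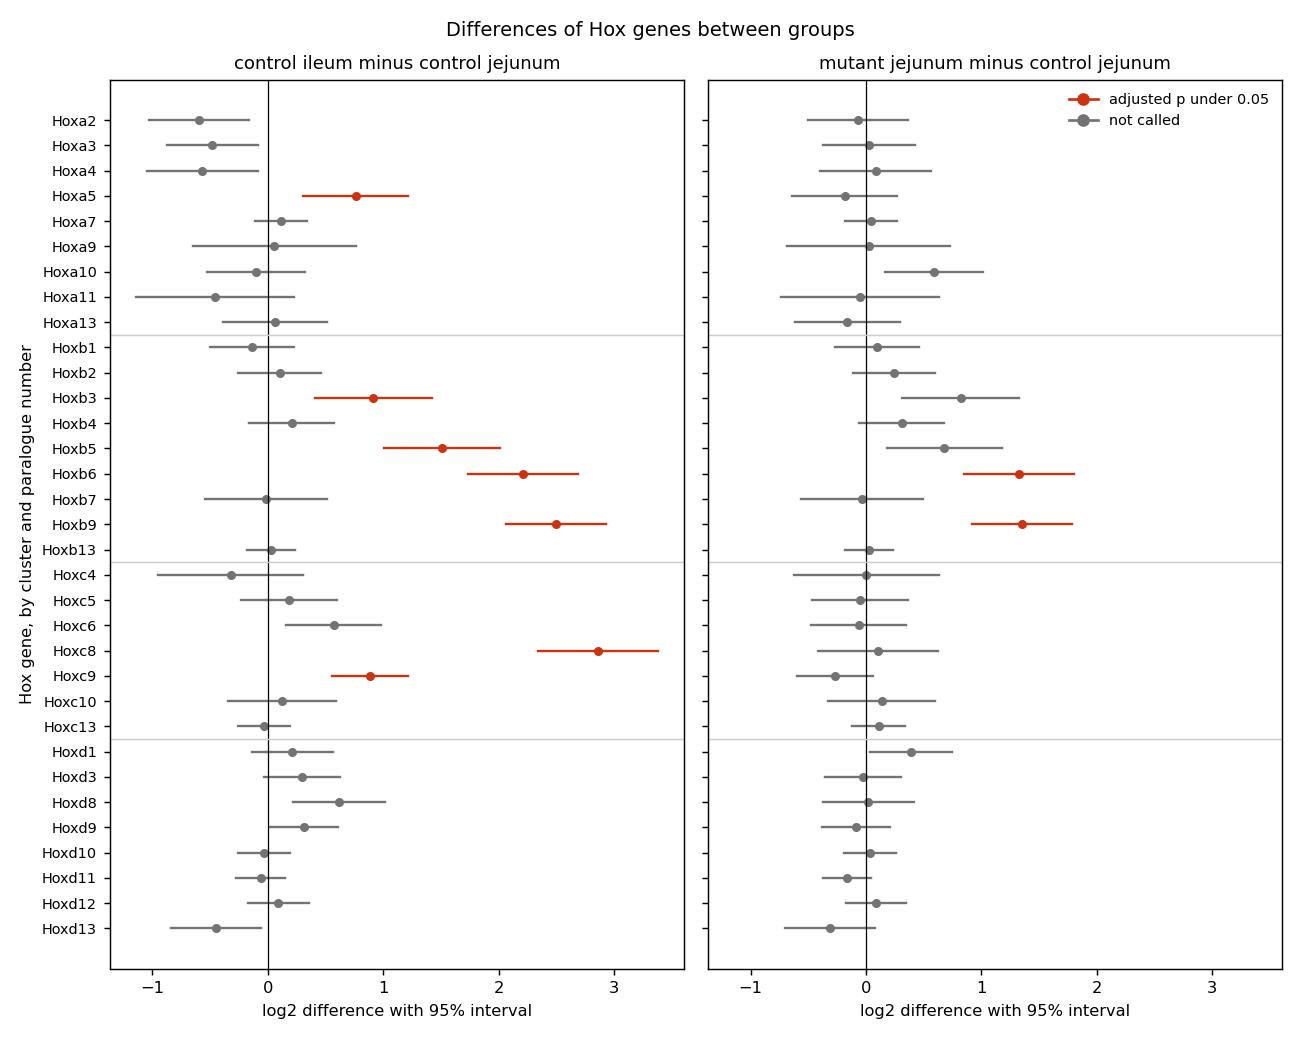
Differences of the 33 Hox genes on the log2 scale with their 95% intervals (x axis), in cluster and paralogue order (y axis), for control ileum minus control jejunum and for mutant minus control jejunum; red marks an adjusted p under 0.05. Hoxb3, Hoxb5, Hoxb6, Hoxb9, Hoxc8, Hoxc9 and Hoxa5 are red at left, and Hoxb6 and Hoxb9 at right.

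Mutant jejunum was compared with control jejunum to ask which Hox genes differ with the loss of Gata4. Mutant was higher in 3 of 48 Hox probe sets (6.25%), against 0.822% of all probe sets, and lower in 0, against 0.83% of all. At an unadjusted p under 0.05, limma gave 7 higher and 0 lower, again with no share of all probe sets counted. The mutant arrays lay wholly above the control arrays in 7 Hox probe sets (14.6%, against 9.35% of all) and wholly below in 4 (8.33%, against 9.08% of all). The median difference was 0.03 over the Hox probe sets and 0.00 over all probe sets. The called probe sets belong to Hoxb6, Hoxb9 and Hoxa9, and by representative probe set 2 of 33 genes rose, both in the Hoxb cluster. The count of 3 went to 1 without control jejunum 2. This comparison and the one between segments use the same control jejunum arrays, so their values are given side by side and are not independent.

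Hoxb9 read 6.60, 6.27 and 5.94 in mutant jejunum, each above the 5.06, 4.72 and 4.98 of control jejunum and below each of the 3 ileum arrays. In deposited intensity units the mutant gave 93.4, 70.6 and 48.0 and the control 20.1, 11.9 and 18.2. The means of 6.27 ± 0.33 and 4.92 ± 0.18 (SD, n = 3) differed by 1.35, a fold of 2.55 (SE 0.19, 95% interval 0.92 to 1.78, limma adjusted p = 0.00613). The call was kept under every alternative. The difference was 2.04 with a constant of 1 and 0.68 with 64.

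Hoxb6 read 6.84, 6.67 and 6.37 in mutant jejunum against 5.53, 5.06 and 5.32 in control jejunum, again without overlap. In deposited units the mutant gave 115.5, 100.2 and 70.3 and the control 34.2, 20.1 and 28.2. The difference was 1.33, a fold of 2.51 (95% interval 0.85 to 1.80, limma adjusted p = 0.0126), and 0.75 with a constant of 64. It was lost without control jejunum 2, control jejunum 3 or mutant jejunum 2, at adjusted p = 0.0629, 0.0564 and 0.0625.

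Hoxb5 and Hoxb3 were not called, though the groups did not overlap in the probe sets that stand for them. Hoxb5 read 5.97, 5.46 and 5.60 in the mutant, above the 4.76, 5.28 and 4.97 of the control, with a difference of 0.68 (95% interval 0.18 to 1.18, adjusted p = 0.21). Hoxb3 read 6.88, 6.34 and 6.43 in the mutant, above the 5.74, 5.62 and 5.82 of the control, with a difference of 0.82 (95% interval 0.32 to 1.33, adjusted p = 0.122). The second Hoxb3 probe set did overlap, at 5.99, 5.19 and 5.52 in the mutant against 5.14, 5.37 and 5.29 in the control. It differed by 0.30 (limma adjusted p = 0.673). Hoxb2 and Hoxb4 differed by 0.24 and 0.31, without a call.

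Hoxa9 was read by 2 probe sets that disagree. One had the lower mean over the 9 arrays, though it was the brighter of the 2 on each mutant array. It read 6.47, 5.51 and 7.11 in mutant jejunum, against 4.27, 4.15 and 4.96 in control jejunum and 4.32, 4.53 and 4.69 in control ileum. The mutant arrays were the highest 3 of the 9, and they were spread widely, with an SD of 0.80. The mutant exceeded control jejunum by 1.91 (SE 0.36, 95% interval 1.11 to 2.70, limma adjusted p = 0.0265). In deposited units the control gave 3.67, 1.96 and 17.6, near background, and the difference was 3.52 with a constant of 1 and 0.93 with 64. The call was lost in the fit of these 2 groups alone (adjusted p = 0.0786) and without control jejunum 1 (0.0785), control jejunum 2 (0.121), mutant jejunum 1 (0.0743), mutant jejunum 3 (0.0591) or control ileum 2 (0.0505).

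The probe set that stands for Hoxa9 read 5.68, 4.88 and 6.06 in mutant jejunum against 5.75, 5.08 and 5.73 in control jejunum, with overlap and a difference of 0.02 (adjusted p = 0.991). No source used here says which transcripts either probe set reads. Hoxa10, the next gene of the cluster, read 4.92, 4.80 and 5.50 in the mutant against 4.58, 4.32 and 4.55 in control jejunum, without overlap. Its difference of 0.59 was not called (adjusted p = 0.196). A second Hoxa10 probe set, dim on every array, went the other way without overlap. It read 4.12, 4.26 and 4.05 in the mutant against 4.31, 4.53 and 4.26 in control jejunum. Its difference of -0.23 was not called either (limma adjusted p = 0.442), so the Hoxa10 probe sets disagree. Hoxa5 differed by -0.19.

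The Hoxc genes that were higher in ileum were not called in the mutant. Hoxc8 differed between mutant and control jejunum by 0.10, with a 95% interval of -0.42 to 0.63 (adjusted p = 0.917). Hoxc9 differed by -0.27 (95% interval -0.60 to 0.06, adjusted p = 0.503), with all 3 mutant arrays below all 3 controls. The x_at probe set of Hoxc6 differed by -0.20. Both Hoxd8 probe sets differed by 0.02 or less.

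**Figure D3:**
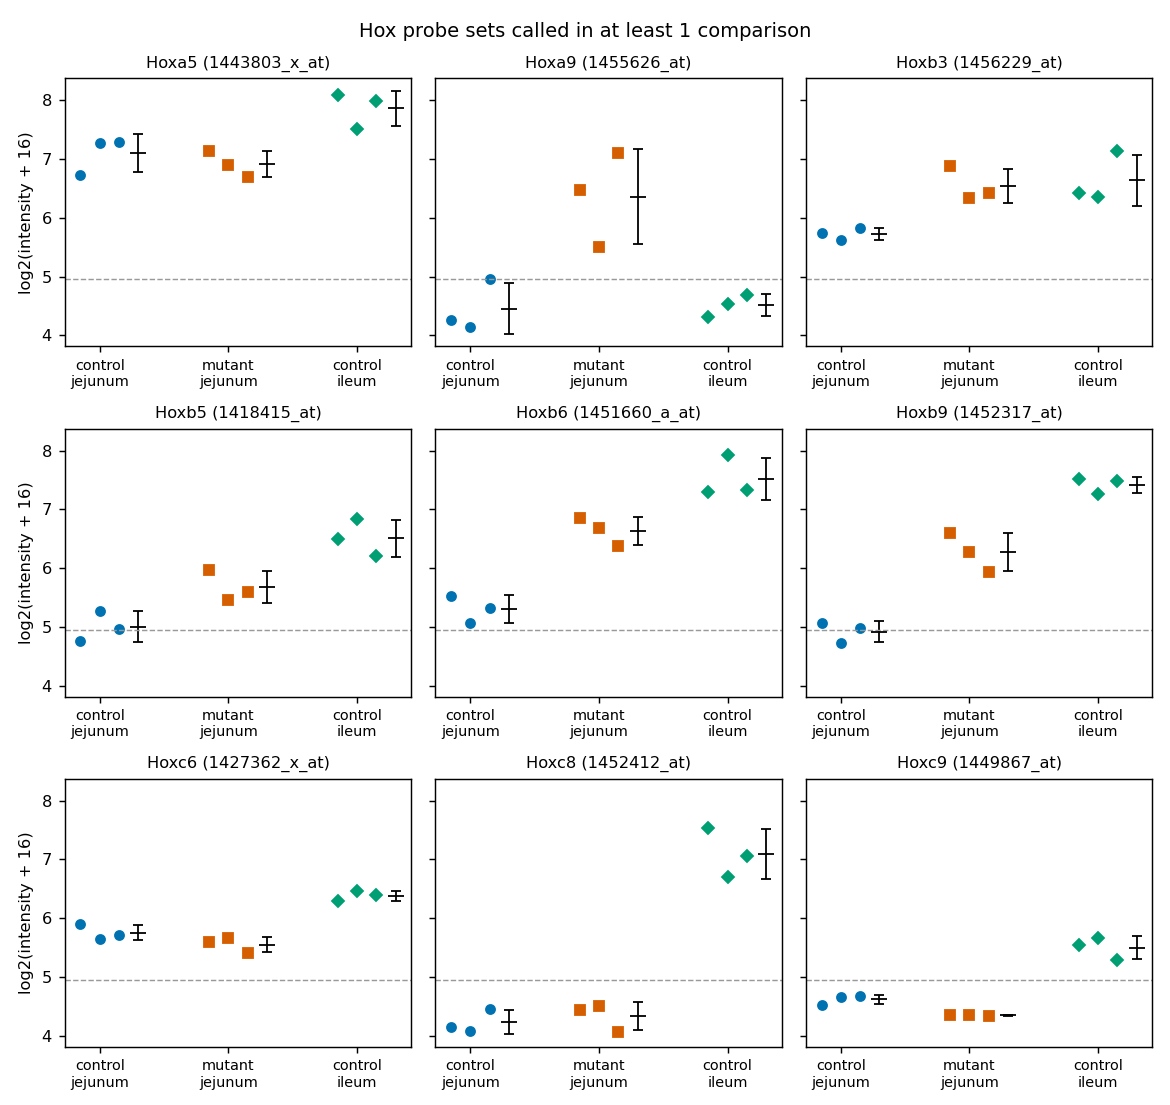
Normalized log2(intensity + 16) on each array for the 9 Hox probe sets called in at least 1 comparison; points are arrays, and the bar beside each group is its mean ± SD of 3 arrays. Hoxb5, Hoxb6 and Hoxb9 in mutant jejunum lie between control jejunum and control ileum, Hoxc8 and Hoxc9 are high in ileum alone, and the Hoxa9 probe set is high in mutant jejunum alone.

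Mutant jejunum was also set directly against control ileum, which tests whether the 2 differ in the genes above. Mutant was lower in 4 of 48 Hox probe sets (8.33%), against 0.58% of all probe sets, and higher in 1 (2.08%), against 0.593% of all. The mutant arrays lay wholly below the ileum arrays in 13 Hox probe sets (27.1%, against 8.96% of all) and wholly above in 5 (10.4%, against 8.31% of all). The median difference was -0.03 over the Hox probe sets and -0.01 over all. The count of 4 went to 2 without mutant jejunum 2 or without any 1 of the 3 ileum arrays, and to 2 in the fit of these 2 groups alone.

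Hoxc8 was lower in mutant jejunum than in ileum (log2 difference -2.76, 95% interval -3.28 to -2.23, limma adjusted p = 0.000499). All 3 mutant arrays lay under the mark of dim signal, and the difference was -4.77 with a constant of 1 and -1.44 with 64. Hoxc9 differed by -1.15 (95% interval -1.48 to -0.82, adjusted p = 0.00684), and by -2.49 and -0.45 with those constants. Both calls were kept under each alternative in which they were tested. The x_at probe set of Hoxc6 differed by -0.83 (adjusted p = 0.0382), a call that was lost on leaving out any 1 of the 9 arrays, at adjusted p from 0.0542 to 0.147. No scaling (0.133), the fit of these 2 groups alone (0.0996) and the replicate number as a block (0.073) ended it too. The representative Hoxc6 probe set differed by -0.64 and was not called (adjusted p = 0.153).

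Among the Hoxb genes, Hoxb9 was lower in mutant jejunum than in ileum, with a difference of -1.15 (95% interval -1.58 to -0.72, adjusted p = 0.0252). That call was lost with no scaling (0.0555), in the fit of these 2 groups alone (0.0698) and without mutant jejunum 2 (0.0755), control ileum 1 (0.0808), control ileum 2 (0.076) or control ileum 3 (0.0718). Hoxb6 and Hoxb5 had every mutant array below every ileum array, with differences of -0.89 (95% interval -1.36 to -0.41, adjusted p = 0.0864) and -0.83 (95% interval -1.33 to -0.33, adjusted p = 0.125), and neither was called. Hoxb3 differed by -0.09 (adjusted p = 0.918), the mutant and ileum arrays being interleaved. Its second probe set differed by -0.35, also with overlap (limma adjusted p = 0.603). In the Hoxa cluster, the x_at probe set of Hoxa5 was lower than ileum by 0.95 without overlap, uncalled (limma adjusted p = 0.0589). The second Hoxa5 probe set differed by 0.06. The third Hoxc6 probe set (-1.01) and both of Hoxd8 (-0.60 and -0.74) also lay wholly below ileum, uncalled. Going the other way, uncalled probe sets of Hoxa3, Hoxa4 and Hoxa10 lay wholly above ileum, by 0.51 to 0.77. A p above the threshold does not show that the groups were alike.

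The Hoxa9 probe set that was higher in the mutant than in control jejunum was also higher than in ileum, by 1.85 (adjusted p = 0.0403). In deposited units ileum gave 2.44, 5.80 and 8.20, near background, and the difference was 3.11 with a constant of 1 and 0.91 with 64. It was the 1 Hox probe set higher in this comparison. The call was lost with either constant (0.0622 and 0.0606), in the fit of these 2 groups alone (0.0996), and without any control array or mutant jejunum 1 or 3, at adjusted p from 0.0537 to 0.136. No intensity trend (0.056) and array weights (0.0505) ended it too.

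The genes of related pathways were counted by representative probe set. Over all probe sets, ileum was called higher than control jejunum in 4.4% and lower in 4.19%. Between mutant and control jejunum these shares were 0.822% and 0.83%, and between mutant and ileum 0.593% and 0.58%. Of the TALE cofactors, 8 of 9 were measured and none was called in any comparison, where limma's unadjusted p was under 0.05 for 1, 1 and 2 genes, all lower. Meis1, named after its values were seen, had the list's largest rise from control jejunum to ileum, without a call. It read 4.83, 5.66 and 5.44 in control jejunum against 5.95, 5.80 and 5.67 in control ileum, a difference of 0.49 (adjusted p = 0.228). The list's median difference was -0.04 between ileum and control jejunum, -0.28 between mutant and control jejunum and -0.09 between mutant and ileum.

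Of 8 ParaHox and Hox-flanking homeobox genes, Cdx1 rose and Pdx1 fell from control jejunum to ileum. Of all probe sets, 4.4% rose and 4.19% fell. Cdx1 read 8.99, 8.71 and 8.79 in control jejunum, 9.19, 9.58 and 9.18 in mutant jejunum and 9.75, 9.77 and 9.73 in ileum, so the 3 groups did not overlap. The ileum exceeded control jejunum by 0.92 (adjusted p = 0.00166; 0.214 with no scaling) and the mutant exceeded it by 0.49, without a call (adjusted p = 0.108).

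Pdx1, a homeobox factor of the proximal gut and pancreas, read 7.11, 7.04 and 6.91 in control jejunum, 6.51, 5.50 and 5.81 in mutant jejunum, with a mean of 4.69 ± 0.29 (SD, n = 3) in ileum. Its groups did not overlap either. It differed by -2.33 between ileum and control jejunum (adjusted p = 0.000326) and by -1.08 between mutant and control jejunum (adjusted p = 0.0682). It was higher in the mutant than in ileum by 1.25 (adjusted p = 0.047), a call lost on leaving out any array but mutant jejunum 2. Cdx2, the intestinal master regulator of this family, differed by 0.17 and 0.09 in the first 2 comparisons, without a call.

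Of 15 transcription factors of gut mesenchyme, 1 rose and 2 fell from control jejunum to ileum, against 4.4% and 4.19% of all probe sets. Hand2, a basic helix-loop-helix factor, rose by 1.15 (adjusted p = 0.0149, up to 0.0659 without control jejunum 3, control ileum 1 or control ileum 2 or with no scaling), Nkx2-3 differed by -0.83 (0.00891) and Gata6, which is also an epithelial factor, by -0.95 (0.00196). In the mutant, Gata6 alone of the 15 was called, at -0.75 (adjusted p = 0.0236). That call was lost without control jejunum 1, 2 or 3 or mutant jejunum 2 or 3, with no scaling and with arrays centred on their medians, at adjusted p up to 0.114.

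Of 23 measured Polycomb and Trithorax genes, whose products keep Hox genes off or on, 1 was higher in ileum than in control jejunum, near the share of all probe sets (4.4%), and limma's unadjusted p was under 0.05 for 1 higher and 2 lower. Bmi1, a Polycomb subunit, was higher in ileum by 0.49 (adjusted p = 0.027). With no scaling the difference was -0.01, and the call was also lost without control jejunum 1 or 3 or control ileum 1 or 2.

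Retinoic acid is a known inducer of Hox genes, and 16 genes of its pathway were measured. From control jejunum to ileum 1 rose and 6 fell, against 4.4% and 4.19% of all probe sets, with a list median of -0.21. The lowest were the retinaldehyde dehydrogenases Aldh1a3 (-1.56, adjusted p = 0.00337), Aldh1a1 (-1.13, 0.0152) and Aldh1a2 (-0.86, 0.00399) and the retinaldehyde reductase Dhrs3 (-0.87, 0.0153). The Aldh1a1 call was lost without control jejunum 3 and that of Dhrs3 without control jejunum 2, control jejunum 3 or control ileum 2. The receptor Rarg, named after its values were seen, was the 1 that rose (0.78, adjusted p = 0.0262, lost without control jejunum 2 or 3 or control ileum 1 or 3 and with no scaling). None was called between mutant and control jejunum, where limma's unadjusted p was under 0.05 for 1 higher and 4 lower. Between mutant and ileum, Aldh1a3 was higher by 1.54 (adjusted p = 0.021), a call lost without any 1 ileum array.

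Other transcripts of the Hox clusters were Hoxd3os1, Hoxb5os and Hoxa11os. Hoxb5os, annotated opposite Hoxb5, read 5.57, 5.67 and 5.36 in control jejunum, 5.98, 5.30 and 5.29 in mutant jejunum and 4.18, 4.43 and 5.07 in ileum. The ileum was lower than control jejunum on every array, by a difference of -0.97 (adjusted p = 0.0468), while Hoxb5 itself was higher. That call was lost without any 1 control jejunum array, mutant jejunum 2 or control ileum 1 or 2 and with a constant of 64, at adjusted p up to 0.146.

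Some markers of other cell types differed between the segments, and some between the genotypes. The counts of these lists stand beside 4.4% of all probe sets called higher and 4.19% lower in ileum than in control jejunum. Between mutant and control jejunum the shares were 0.822% and 0.83%, and between mutant and ileum 0.593% and 0.58%. The summed normalized level of 12 smooth muscle genes was 17310 to 21560 in control ileum, against 9131 to 13420 in control jejunum and 7429 to 11320 in mutant jejunum. All 12 were measured and none stayed under the mark of dim signal. From control jejunum to ileum 7 of them rose and 0 fell, with a median difference of 0.95. In mutant jejunum 7 were lower than in ileum, with a median of -1.11. Each of those 7 calls between mutant and ileum was lost on leaving out at least 1 array. Actg2, the enteric smooth muscle actin, differed by 1.61 between ileum and control jejunum (adjusted p = 0.00115) and by 0.02 between mutant and control jejunum. With no scaling the other 6 ileum calls, Acta2, Myh11, Tagln, Cnn1, Lmod1 and Synm, were lost, and all of these but Tagln were also lost on leaving out at least 1 array.

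Between mutant and control jejunum, 0 of the 12 smooth muscle genes were called, with a median of -0.20, and limma's unadjusted p was under 0.05 for 1 gene, lower. Some smooth muscle markers and some Hoxb and Hoxc genes were thus both higher in ileum than in control jejunum. The part of muscle content in the Hox differences, between segments or between genotypes, was not tested.

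Enteric neurons and glia, 13 of 15 genes measured, summed to 660 to 735 in ileum, 630 to 1088 in control jejunum and 512 to 951 in mutant jejunum. Between ileum and control jejunum 3 rose and 1 fell, with a list median of 0.35. Limma's unadjusted p there was under 0.05 for 6 higher and 3 lower. Between mutant and control jejunum none was called (limma's unadjusted p under 0.05 for 1 higher and 2 lower), and 3 were lower in mutant than in ileum. The ileum calls of Snap25, Stmn2 and Vip were each lost on leaving out at least 1 array and that of Elavl4 with no scaling, and the 3 calls between mutant and ileum were each lost on leaving out at least 1 array. Of 2 interstitial cell genes, Kit was higher in ileum, a call lost without control jejunum 1 or 2 or control ileum 1 or 2. Of 11 stroma and vessel genes, Lum rose and Kdr fell in ileum, the Lum call being lost with no scaling and the Kdr call without control jejunum 2 or 3 or control ileum 1 or 2. None was called between mutant and control jejunum, where limma's unadjusted p was under 0.05 for 0 genes. Their summed levels were 4017 to 5354 in control jejunum, 4551 to 7638 in mutant jejunum and 4450 to 5539 in ileum.

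The 11 epithelial genes summed to 54920 to 56410 in control jejunum, 59100 to 65810 in mutant jejunum and 66350 to 68960 in ileum. From control jejunum to ileum 5 rose, and in the mutant 2 did, Krt18 and Tspan8, each by 0.84. The ileum calls of Krt18 and Tspan8 were kept under every alternative, while those of Cdh1, Elf3 and Krt19 were lost with no scaling, where Cdh1 differed by -0.14, and those of Cdh1 and Elf3 also on leaving out single arrays. These levels moved in the same order as Hoxb6 and Hoxb9, and their part in the Hox differences was not tested. Genes of ileal enterocytes, 5 in number, summed to 2162 to 3025 in control jejunum, 24500 to 27190 in mutant jejunum and 22790 to 24110 in ileum. All 5 were higher in mutant than in control jejunum, and 4 in ileum. Of 6 proximal enterocyte genes, 5 fell from control jejunum to ileum and 3 fell in the mutant, and they summed to 24140 to 26860, 5112 to 10810 and 378 to 1216 in control jejunum, mutant jejunum and ileum.

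Of 6 T cell genes measured, 1 was lower in ileum than in control jejunum, and of 7 B and plasma cell genes 2 were. Limma's unadjusted p was under 0.05, with ileum lower, for 5 genes of each list, and the medians were -0.78 and -0.71. The calls, Cd3g, Jchain and Tnfrsf17, were each lost on leaving out single arrays. Between mutant and control jejunum none was called in either list, where limma's unadjusted p was under 0.05 for 0 genes. Of 4 large intestine genes measured, Mptx1 was called higher in ileum than in control jejunum, by 1.79. The list's median there was -0.36, and limma's unadjusted p was under 0.05 for 1 higher and 2 lower. None was called between mutant and control jejunum (limma's unadjusted p under 0.05 for 1 higher and 2 lower). With 4 genes, a colonic contribution to the ileum samples was checked only in part.

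**Figure D4:**
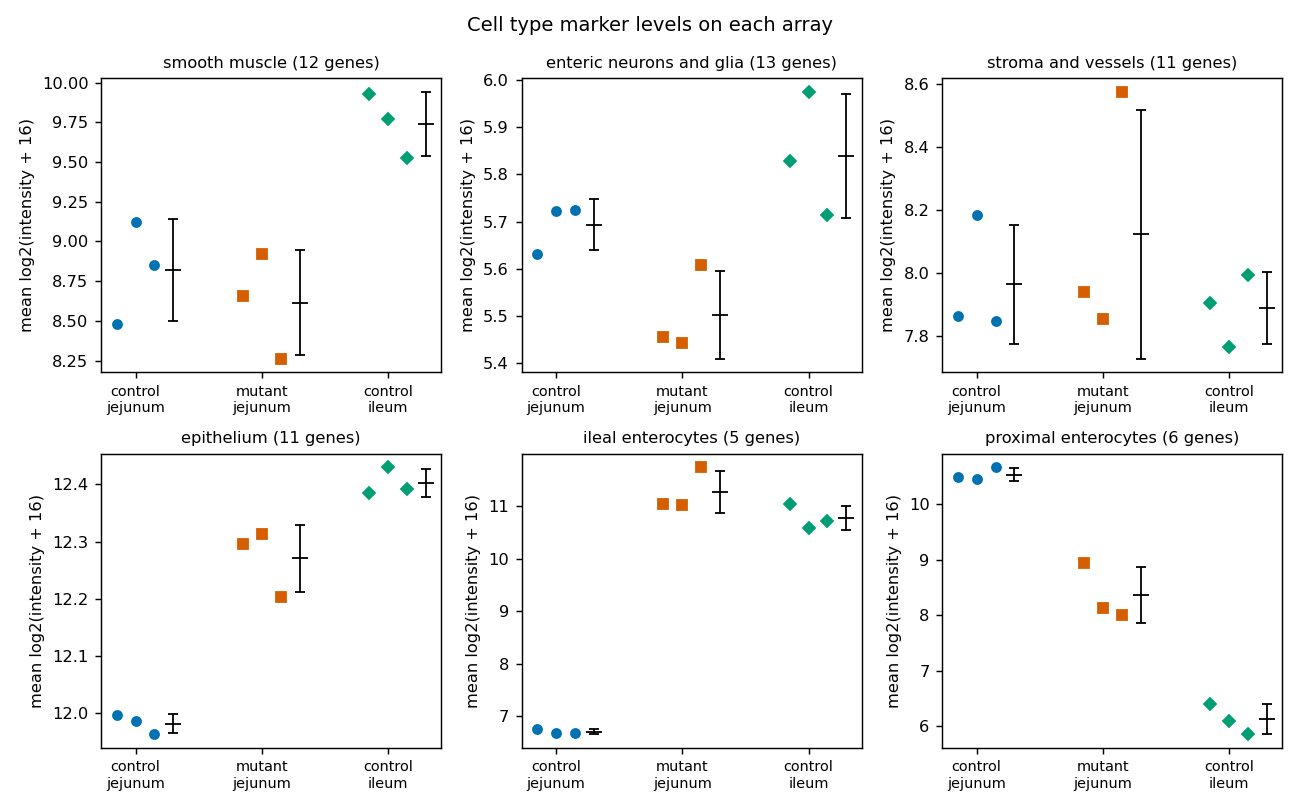
Mean normalized log2(intensity + 16) over the genes of 6 marker lists on each array, with the group's mean ± SD of 3 arrays beside its points; each panel has its own scale, which does not start at 0. Smooth muscle is highest on the 3 ileum arrays with both jejunum groups overlapping, and epithelial and ileal enterocyte genes are higher in mutant than in control jejunum on every array.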

How the data were processed

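Total RNA from 9 mice was labelled by the Affymetrix one-cycle procedure after extraction with the RNeasy mini kit, per the labels' protocols, and hybridized to mouse genome arrays of Affymetrix. The authors deposited 1 linear intensity per probe set and array, made with GCOS per the submitters' processing notes; no source used here gives its version or settings. Groups come from the sample titles. The table has 45101 probe sets; without its 64 array controls, 45037 were tested, with no filter on low values, so that every Hox probe set was tested. Names come from the array's annotation table: 34945 probe sets have 1 gene, 932 several and 9160 none. Entrez identifiers matched RefSeq (GRCm38.p6) for 34741, and no symbol changed.

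Intensities were quantile-normalized on the log2(intensity + 16) scale and fitted with limma 3.58.1 in R 4.3.3: lmFit on all 9 arrays, 3 contrasts, eBayes with an intensity trend, two-sided, Benjamini-Hochberg over all probe sets of a contrast, called at an adjusted p under 0.05. Quantile normalization hides a shift of all transcripts in one direction. The fit was tested on simulated data. The probe set with the highest mean over 9 arrays stood for a gene. Values in every array are given for each Hox gene with a called probe set. The other Hox genes are given by counts, with those of largest difference named. At most 4 called genes are named per list by size of difference. Rarg, marker genes beyond that and the uncalled Meis1 and Cdx2 were named after their values were seen. The members, the rule and the 16 lists (cofactors, ParaHox genes, mesenchyme factors, Polycomb and Trithorax, retinoic acid, other Hox-cluster transcripts and 10 marker lists) were chosen with earlier results of these data known, and lists were given no set test. The mice of the groups are separate animals, so replicate numbers do not pair samples by animal.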

Additional observations from a re-analysis of the deposited data

How the results depend on the processing

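Of 16 called pairs of Hox probe set and comparison, 8 were kept under every alternative and 8 were lost under at least 1; none of the 16 changed sign. Of 11 uncalled pairs followed, 1 was gained, the x_at probe set of Hoxa5 between mutant jejunum and ileum. Limma called it lower in the mutant with trimmed mean scaling and when dim probe sets were left out before the test (adjusted p from 0.0374 to 0.0438). With no scaling between arrays, the Hox probe sets called were 5 higher and 4 lower in ileum than in control jejunum, and 7 higher and 2 lower in mutant jejunum than in ileum; the median of all probe sets was then -0.26 and 0.28, against 0.01 and -0.01 after quantile normalization, so calls are to be read relative to that shift. It also turned the ileum differences of Bmi1 to -0.0085 and of the epithelial marker Cdh1 to -0.14. The 1 probe set higher in mutant jejunum than in ileum went to 0 with a constant of 1 or 64, with no intensity trend, in the fit of the 2 groups alone, with array weights and counted by gene; those lower went to 2 in the fit of the 2 groups alone. Leaving out 1 array in turn gave 5 to 8 higher and 0 lower in ileum than in control jejunum, 1 to 3 higher and 0 lower in mutant than in control jejunum, and 0 to 1 higher and 2 to 3 lower in mutant jejunum than in ileum. With the replicate number as a block (replicate block) the counts were 6 higher and 0 lower, 3 and 0, and 1 and 3. Deviations of same-numbered arrays correlated at -0.06 to 0.12, and 5 of 9 arrays correlated best with their own number. These values do not settle whether same-numbered samples share more than a number. The cause of the changes in counts was not tested. Precision is limited by 3 arrays a group, by dim signal of many Hox probe sets and by the unknown brightness settings.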
